A study of Mus musculus with 12 samples.

Results

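The genes described here are 10 genes grouped by name as markers of the capsule and the stromal progenitors of the adrenal: *Nr2f1*, *Nr2f2*, *Wt1*, *Tcf21*, *Pdgfra*, *Pdgfrb*, *Dcn*, *Lum*, *Dpt* and *Dlk1*. In these libraries *Dlk1* varied with markers of the adrenal medulla, as described with its values, and for this gene the name of the group is not borne out. The genes were chosen by symbol, and all 10 were found among the 39017 genes of the deposited tables. All 10 passed the filter on low counts, and 9 had a base mean (the mean of the normalized counts over all mice) above 100. RNA was sequenced from whole adrenals trimmed of fat, 1 library per mouse, from 6 control (Ctrl) and 6 βCat-GOF females aged 10 to 11 weeks on a mixed sv129-C57Bl/6 background. Ctrl mice carried ASCre/+ alone by their genotype label, while their titles read Wt_Ctr and the study calls the compared adrenals wild type. βCat-GOF mice carried ASCre/+ together with 1 *Ctnnb1* fl(ex3) allele, from which Cre removes an exon so that β-catenin is stabilized. By the genotype labels both groups carry ASCre. The study's methods list it as a Cre allele of *Cyp11b2*, a gene of aldosterone-producing zona glomerulosa (zG) cells. The data do not show which cells of the gland express the 10 genes. Between 13484675 and 25625494 reads per mouse were counted on genes. Mouse labels start differently in the 2 groups, so litters or batches that the labels may reflect cannot be told apart from genotype. In 3 pairs of mice the labels have a common stem, and their counts differed within the range of other pairs (chi-square over degrees of freedom 39.2 to 42.8, where the remaining 27 within-group pairs gave 15.8 to 136). The βCat-GOF pair, replicates 1 and 2, was nearer to each other (39.2) than to any other βCat-GOF mouse. Against the others, replicate 1 was at 79.7 to 136 and replicate 2 at 43.0 to 84.0. The Ctrl pairs were not the nearest of their mice. Whether a pair shares 1 mouse was not tested. All 12 libraries were counted as separate mice. Replicate numbers only name a mouse within its group, and no number pairs a Ctrl mouse with a βCat-GOF mouse.

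The adrenal capsule is a thin mesenchymal sheath over the zG. Its cells send signals to the cortex below, receive Hedgehog signals from it, and include progenitors that give rise to steroidogenic cells. *Nr2f1* and *Nr2f2* encode the orphan nuclear receptors COUP-TFI and COUP-TFII, and *Wt1* and *Tcf21* encode transcription factors of capsular and stromal progenitors. *Pdgfra* and *Pdgfrb* encode the receptors for platelet-derived growth factors, typical of fibroblasts and of pericytes. *Dcn*, *Lum* and *Dpt* encode decorin, lumican and dermatopontin, matrix proteins that bind collagen. *Dlk1* encodes an imprinted transmembrane protein related to the Notch ligands.

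Of the 10 genes, *Nr2f1* rose in βCat-GOF adrenals and no other gene passed the test in either direction. Genes were tested with edgeR's quasi-likelihood test over 14953 genes, with Benjamini-Hochberg adjustment, and 3 cut-offs had to be met (fold over 1.4, adjusted p below 0.05, base mean over 100). Standard errors are written SE. By this rule 1.48% of all genes tested rose in βCat-GOF adrenals and 0.869% fell. By the adjusted p alone the call was again *Nr2f1* only, where 2.16% of all genes were higher and 1.52% lower. The 10 genes had a median log2 fold change of -0.24, beside 0.000105 over all genes tested, and 6 of them were below 0, beside 50% of all genes. At an unadjusted p under 0.05, 1 gene was higher (*Nr2f1*) and 1 lower (*Dlk1*), where 9.73% and 10.7% of all genes were. In RNA from whole glands, fewer cells of a type and less RNA per cell cannot be told apart.

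**Figure D1:**
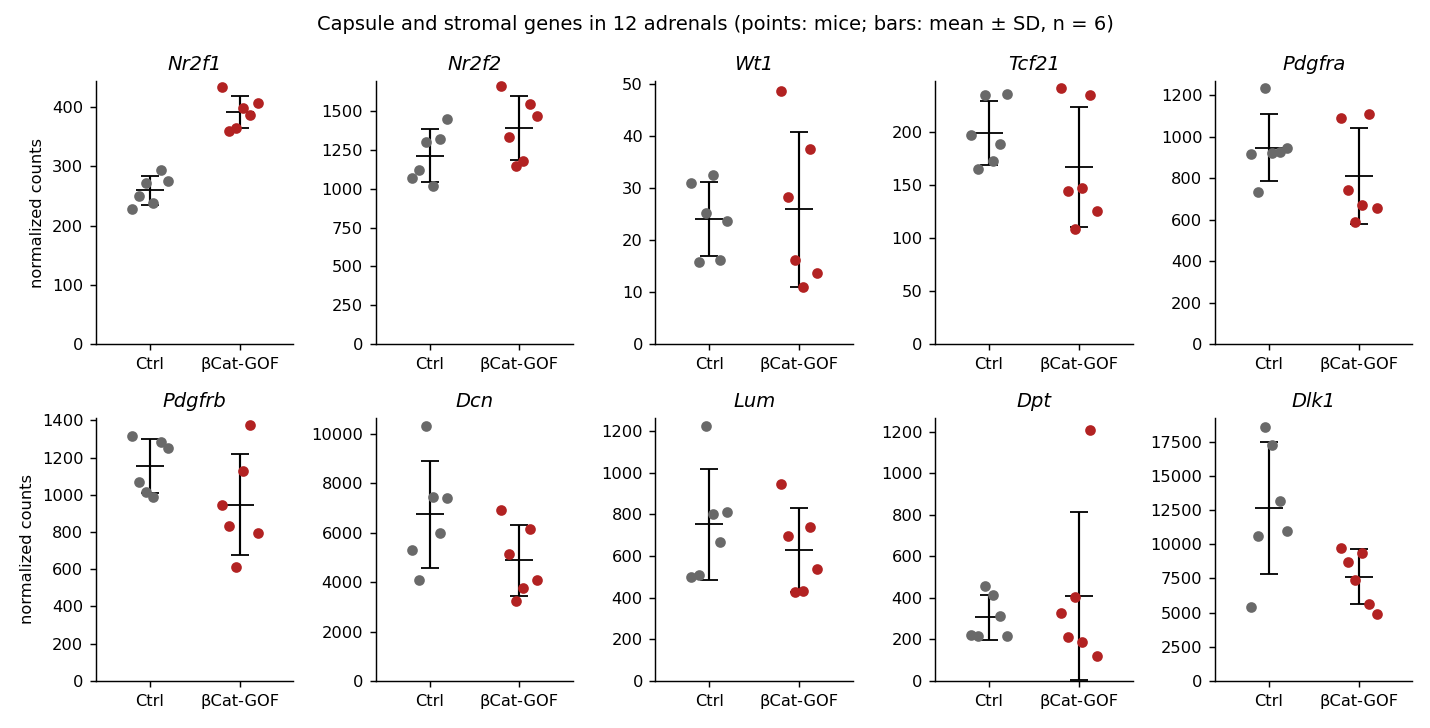
Normalized counts (vertical axes, linear and starting at 0) of the 10 genes in 6 Ctrl (grey) and 6 βCat-GOF (red) mice, with bars for mean ± SD. The βCat-GOF mice lie between 360 and 434 for *Nr2f1*, all above the Ctrl mice, while the groups overlap for the other 9 genes.

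*Nr2f1* (ENSMUSG00000069171; GRCm38 chromosome 13, 78188973 to 78199757, minus strand) was the gene whose groups were apart. Its normalized counts (counts divided by DESeq2's size factors) ranged from 229 to 295 in Ctrl mice, with a median of 260, and from 360 to 434 in βCat-GOF mice, with a median of 392. Every βCat-GOF mouse lay above every Ctrl mouse, a pattern that 1.61% of all genes tested showed. The mean rose from 259 ± 25.2 to 392 ± 27.5 (SD, n = 6 each), which is 0.59 as log2 fold change (SE 0.10, adjusted p = 0.00577 by edgeR) or a fold of 1.5. The spread was narrow in both groups, with a coefficient of variation of 9.71% in Ctrl and 7.02% in βCat-GOF mice. In 12 fits that each dropped 1 mouse, the log2 fold change stayed between 0.56 and 0.63 and the gene passed in every fit. Of its exons, 2.42% overlap another gene. When the test was made against a fold of 1.4 itself, *Nr2f1* did not pass (adjusted p = 0.966).

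*Nr2f2* (ENSMUSG00000030551; chromosome 7, 70351944 to 70366735, minus strand), the paralog of *Nr2f1*, was measured at higher counts, with a smaller difference between groups. Its normalized counts were between 1017 and 1447 in Ctrl mice (median 1208) and between 1148 and 1660 in βCat-GOF mice (median 1399). The groups overlapped, with 3 of 6 βCat-GOF mice above all Ctrl mice. The log2 fold change of 0.19 missed the cut-offs (SE 0.12, adjusted p = 0.384). Its 95% interval, from -0.04 to 0.42, lies below the estimate for *Nr2f1* but overlaps the interval of *Nr2f1*, from 0.39 to 0.78. Since both genes were counted in the same library, their ratio does not depend on the scaling of the libraries. Counts of *Nr2f1* were between 0.19 and 0.233 times those of *Nr2f2* in Ctrl mice and between 0.25 and 0.339 times in βCat-GOF mice, so the ratio was higher in 6 of 6 βCat-GOF mice than in every Ctrl mouse. The difference was 0.40 on the log2 scale (exact permutation test over 924 splits, two-sided, p = 0.00216, the smallest that 6 against 6 allow; adjusted p = 0.00866 over 4 ratios, which were chosen after the values were seen).

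The promoter windows of this pair are shown because the ratio of the 2 receptors differed between groups. RefSeq (GRCm38.p6) windows run from 250 bases before to 50 after a gene's start and were found for 6 of the 10 genes. They were searched on both strands for CTTTGA, 1 form of the core that TCF/LEF factors, the DNA-binding partners of β-catenin, recognize. Forms with other letters, such as CTTTGT, were not searched for. Capitals mark a match, and sequences are given 5′ to 3′ on the gene's strand. The windows are chr13:78198824-78199123 and chr13:78196400-78196699 for the 2 starts of *Nr2f1*, and chr7:70366697-70366996 for *Nr2f2*, all on the minus strand.
Nr2f1, window 1: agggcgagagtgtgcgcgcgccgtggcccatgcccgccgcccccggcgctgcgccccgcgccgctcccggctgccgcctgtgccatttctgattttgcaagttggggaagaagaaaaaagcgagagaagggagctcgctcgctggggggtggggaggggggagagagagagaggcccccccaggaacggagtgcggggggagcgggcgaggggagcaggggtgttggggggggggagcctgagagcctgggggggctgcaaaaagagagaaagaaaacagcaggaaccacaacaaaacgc
Nr2f1, window 2: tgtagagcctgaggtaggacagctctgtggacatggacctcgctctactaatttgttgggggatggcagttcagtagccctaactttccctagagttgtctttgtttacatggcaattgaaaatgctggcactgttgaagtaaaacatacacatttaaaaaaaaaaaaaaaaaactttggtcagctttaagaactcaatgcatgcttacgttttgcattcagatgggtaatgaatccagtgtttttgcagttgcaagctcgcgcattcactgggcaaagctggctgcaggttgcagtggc
Nr2f2: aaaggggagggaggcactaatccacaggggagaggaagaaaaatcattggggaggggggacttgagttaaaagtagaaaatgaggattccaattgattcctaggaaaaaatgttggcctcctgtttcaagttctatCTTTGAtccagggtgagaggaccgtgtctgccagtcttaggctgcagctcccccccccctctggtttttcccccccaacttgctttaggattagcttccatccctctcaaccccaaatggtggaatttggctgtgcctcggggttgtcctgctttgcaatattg
*Nr2f2* holds 1 match to CTTTGA, which begins 114 bases before the start, and the 2 windows of *Nr2f1* hold none. Window 2 of *Nr2f1* does hold ctttgt, left in lower case, so the lack of a match is for the letters CTTTGA alone. Of the 7 windows found, the only other match is in *Tcf21*, 249 bases before the start and on the other strand. Over all 32851 windows of this length, 16% hold the motif. A match describes letters and is not a binding site, and these windows leave out most of the regulatory sequence of both genes.

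**Figure D2:**
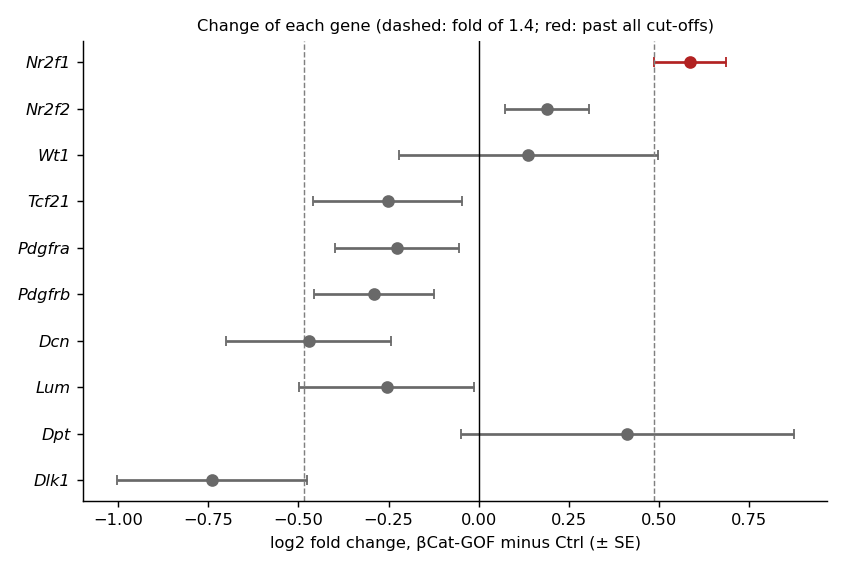
Log2 fold change of each gene, βCat-GOF minus Ctrl, with its standard error (horizontal axis; n = 6 mice per group). Dashed lines mark a fold of 1.4 in either direction. *Nr2f1* at 0.59 is past all cut-offs (red), and *Dlk1* at -0.74 is past the fold but has a standard error of 0.26.

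*Wt1* and *Tcf21*, the 2 progenitor transcription factors, did not pass. *Wt1* (chromosome 2, 105126529 to 105173616) had between 7 and 63 reads per mouse. Its normalized counts were between 15.8 and 32.6 in Ctrl mice (median 24.4) and between 11.1 and 48.7 in βCat-GOF mice (median 22.2), with βCat-GOF mice both above and below the whole Ctrl range. The log2 fold change was 0.14 (SE 0.36, adjusted p = 0.87), and its base mean of 25.0 is under the limit for a call. *Wt1* and *Tcf21* are also known from kidney podocytes, and in these libraries *Nphs1*, which encodes a slit diaphragm protein of podocytes, had at most 2 reads in any mouse, and *Umod* of the renal tubule was at 0 in all 12. Of the 7 genes of the kidney list, *Podxl*, which podocytes share with endothelium, was high, at 1600 to 2476 normalized counts in Ctrl and 1617 to 2353 in βCat-GOF mice. *Lrp2* of the renal tubule reached 23 reads in 1 mouse, and the part of kidney RNA in the values of *Wt1* and *Tcf21* was not tested. *Tcf21* (chromosome 10, 22817281 to 22820174) had between 166 and 236 normalized counts in Ctrl mice (median 193) and between 109 and 242 in βCat-GOF mice (median 146). The values of 4 βCat-GOF mice lay below all Ctrl mice, while βCat-GOF replicate 1 lay above all Ctrl mice and replicate 5 near the top of the Ctrl range. The log2 fold change of -0.25 was within the spread between mice (SE 0.21, adjusted p = 0.525).

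Both PDGF receptors had lower means in βCat-GOF adrenals, and neither passed. *Pdgfra* (chromosome 5, 75152292 to 75198215) had between 733 and 1234 normalized counts in Ctrl mice (median 923) and between 591 and 1110 in βCat-GOF mice (median 706), a log2 fold change of -0.23 (SE 0.17, adjusted p = 0.491). *Pdgfrb* (chromosome 18, 61045150 to 61085061) had between 989 and 1314 (median 1161) and between 610 and 1376 (median 889), a log2 fold change of -0.29 (SE 0.17, adjusted p = 0.343). For both genes βCat-GOF replicate 5 was the highest of its group and replicate 3 the lowest. The ratio of *Pdgfra* to *Pdgfrb* counts ranged from 0.686 to 1.22 in Ctrl and from 0.593 to 1.16 in βCat-GOF mice, with a difference of 0.07 on the log2 scale (exact permutation test, two-sided, p = 0.712). Of 5 genes for PDGF ligands and a receptor-like protein, 1 passed. *Pdgfa*, a ligand of PDGFRα, rose from 419 to 696 mean normalized counts, a log2 fold change of 0.73 (SE 0.14, adjusted p = 0.0105), and 26.1% of its exon bases are shared with another gene. *Pdgfd*, a ligand of PDGFRβ and the most abundant ligand per length, had a log2 fold change of -0.31 that did not pass (SE 0.12, adjusted p = 0.166).

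The 3 matrix genes did not pass either. *Dcn* (chromosome 10, 97479609 to 97518143) had between 4070 and 10310 normalized counts in Ctrl mice (median 6695) and between 3249 and 6930 in βCat-GOF mice (median 4615). Above all βCat-GOF mice lay 3 of the Ctrl mice, and 2 βCat-GOF mice lay below all Ctrl mice. The log2 fold change of -0.47 had a standard error of 0.23 (adjusted p = 0.26). *Lum*, its neighbour on chromosome 10 (97565128 to 97572703), had between 501 and 1224 normalized counts in Ctrl mice (median 734) and between 426 and 944 in βCat-GOF mice (median 618), a log2 fold change of -0.26 (SE 0.24, adjusted p = 0.594). *Dcn* counts were 8.03 to 10.6 times *Lum* counts in Ctrl mice and 7.34 to 8.64 times in βCat-GOF mice. This ratio was lower in βCat-GOF mice on the log2 scale, with a difference of -0.21 (exact permutation test, two-sided, p = 0.0108, adjusted p = 0.0144 over the 4 ratios). The values of 4 βCat-GOF mice lay below those of all Ctrl mice.

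*Dpt* (chromosome 1, 164796644 to 164824266) varied most between βCat-GOF mice, with a coefficient of variation of 98.7%, against 35.0% between Ctrl mice. It had between 215 and 456 normalized counts in Ctrl mice (median 268) and between 122 and 1209 in βCat-GOF mice (median 268). The medians were alike, and βCat-GOF replicate 5 alone stood at 1209, where the next βCat-GOF mouse had 404. The log2 fold change was 0.41 (SE 0.46, adjusted p = 0.662), and without that mouse it was -0.29 (SE 0.31, adjusted p = 0.668). The same mouse had the highest value of all 12 in 10 of the 26 genes of a list of fibroblast and capsule matrix. Its summed level of 9 adipocyte markers was 786 CPM (counts scaled to a common library size), the highest of the βCat-GOF mice, which ranged from 228 to 786, while the Ctrl mice ranged from 175 to 935. Fat or fibrous tissue left on the gland as a part of this value was not tested.

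*Dlk1* (ENSMUSG00000040856; chromosome 12, 109452823 to 109463336, plus strand) had the largest difference of the 10 genes and did not pass. Its normalized counts were between 5398 and 18563 in Ctrl mice (median 12078) and between 4900 and 9725 in βCat-GOF mice (median 8056). Above all βCat-GOF mice lay 5 of the 6 Ctrl mice, and Ctrl replicate 1 lay below 5 of the 6 βCat-GOF mice. The log2 fold change of -0.74 had a standard error of 0.26 (adjusted p = 0.141). Without Ctrl replicate 1, it was -0.89 with an adjusted p of 0.036 by edgeR, which passes. That mouse also had the lowest summed chromaffin markers of all 12, 3857 CPM, and the part of this in the result was not tested. Between mice, *Dlk1* went with markers of the medulla. Over the 12 mice, with group means removed, its log2 CPM correlated with the mean of 6 chromaffin cell markers (*Th*, *Dbh*, *Pnmt*, *Chga*, *Chgb* and *Slc18a2*) at r = 0.92 and rho = 0.90 (permutation within groups, two-sided, p = 0.00029 for r and 0.0004 for rho, adjusted p = 0.013 over 90 comparisons of the genes with 9 marker lists), and r was 0.79 without the 2 mice farthest from the median. Its correlation with 6 Schwann cell markers was 0.93 (rho 0.97, permutation p = 3e-05 for both, adjusted p = 0.0027; r = 0.91 without the 2 farthest mice). Among 11387 genes, the one most alike was *Scg2*, which encodes the secretory granule protein secretogranin II, at r = 0.99. Its correlation with the other 9 genes was between -0.23 and 0.54, none with an adjusted p under 0.05. The values of *Dlk1* are therefore given beside those of chromaffin cells.

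In Ctrl mice *Dlk1* counts were a narrow share of the summed counts of the 6 chromaffin markers, between 6.94% and 7.81%, although *Dlk1* itself differed 3.44-fold between the lowest and the highest Ctrl mouse. In βCat-GOF mice the share was between 4.77% and 7.46% (median 5.53%), and 5 of the 6 lay below all Ctrl mice. The difference was -0.39 on the log2 scale (exact permutation test, two-sided, p = 0.00866, adjusted p = 0.0144 over the 4 ratios). The chromaffin sum itself overlapped between the groups, at 77743 to 237578 normalized counts in Ctrl (median 160210) and 98679 to 190246 in βCat-GOF mice (median 132250). None of the 6 markers passed, and 5 had a log2 fold change below 0 (median -0.35), beside 50% of all genes tested. *Scg2* was at -0.57 (SE 0.25, adjusted p = 0.212 by edgeR). Of the other 5 genes of the imprinted *Dlk1* cluster, none passed. The maternally expressed long RNAs *Meg3* and *Rian*, the most abundant of them, had log2 fold changes of 0.40 and 0.43, with standard errors of 0.36 and 0.29 (adjusted p = 0.573 and 0.439).

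**Figure D3:**
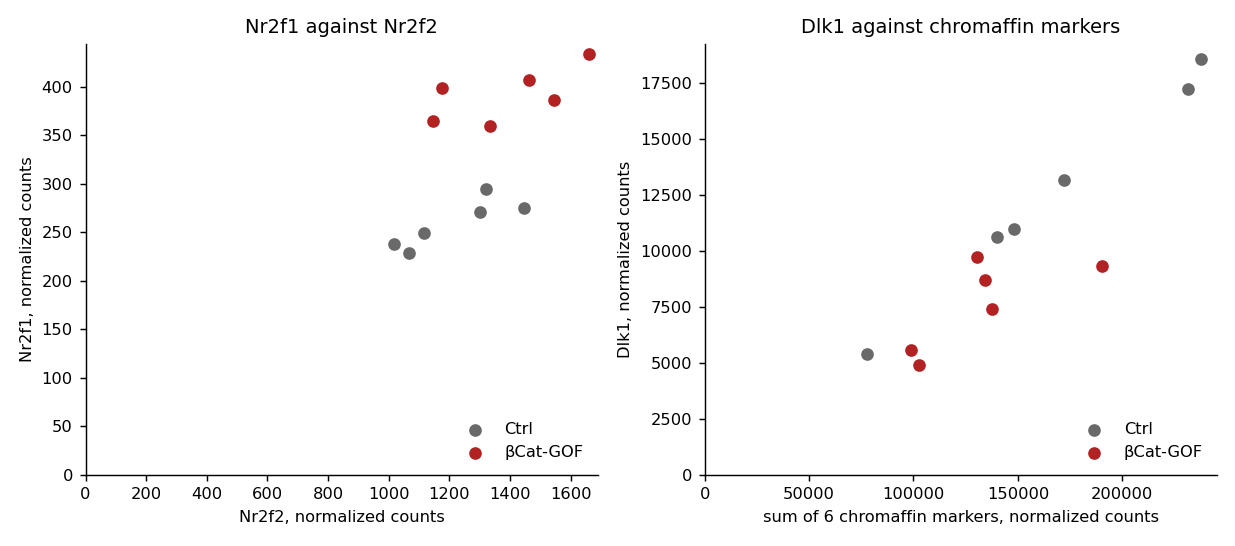
Left, normalized counts of *Nr2f1* (vertical) against *Nr2f2* (horizontal); right, *Dlk1* (vertical) against the sum of 6 chromaffin markers (horizontal); each point is 1 mouse, Ctrl grey and βCat-GOF red, on linear axes from 0. The βCat-GOF mice lie above the Ctrl mice on the left, and on the right the Ctrl mice fall along a line at 6.94% to 7.81% with 5 of 6 βCat-GOF mice below it.

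Per length, the genes spanned a wide range, and their order was nearly the same in both groups. As CPM per kilobase of exon, *Dlk1* was the highest in Ctrl mice (112 ± 42.6, SD, n = 6), followed by *Dcn* (57.9 ± 18.4), *Lum* (15.4 ± 5.43), *Pdgfrb* (10.5 ± 1.31), *Dpt* (8.88 ± 3.10), *Nr2f2* (7.03 ± 0.978), *Pdgfra* (4.72 ± 0.791), *Tcf21* (4.25 ± 0.627), *Nr2f1* (2.55 ± 0.251) and *Wt1* (0.194 ± 0.0566). The ranges of the Ctrl mice did not overlap between *Dcn* and *Lum*, between *Tcf21* and *Nr2f1*, and between *Nr2f1* and *Wt1*. The other neighbours in the order overlapped. In βCat-GOF mice *Nr2f1* was at 3.83 ± 0.312 and *Tcf21* at 3.56 ± 1.25, so the order of these 2 genes was turned, with overlapping ranges. *Dpt* (11.8 ± 11.6) also stood above *Pdgfrb* (8.62 ± 2.47) in βCat-GOF mice, but without βCat-GOF replicate 5 the means were 7.23 and 7.86, in the order of the Ctrl mice. With the length of the longest transcript in place of all exons, *Nr2f2* stood above *Pdgfrb* and *Dpt*.

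**Figure D4:**
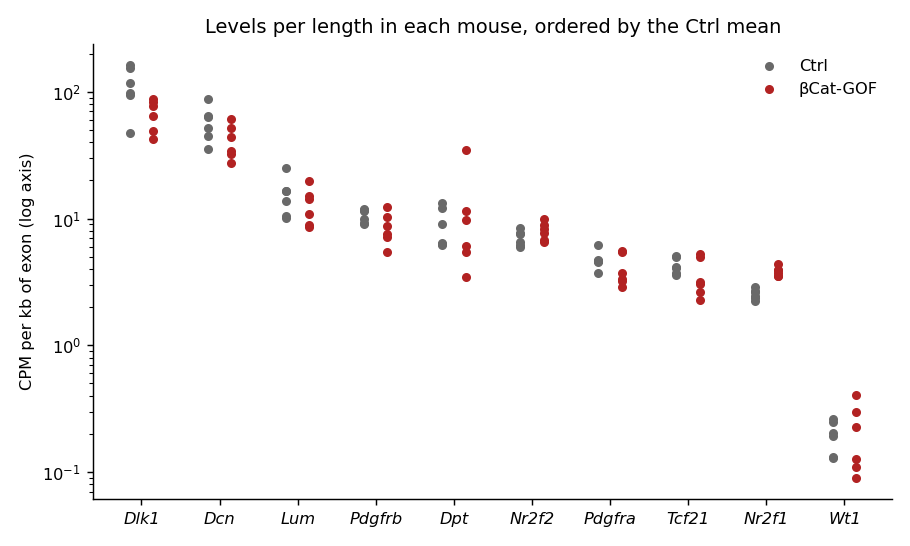
CPM per kilobase of exon in each mouse (vertical log axis), genes ordered by their Ctrl mean; Ctrl grey, βCat-GOF red. *Dlk1* and *Dcn* lie highest, *Wt1* lies lowest at a Ctrl mean of 0.194, and only for *Nr2f1* are the 2 groups apart.

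Among mice of 1 group, several of these genes varied together. The correlation of log2 CPM with group means removed was above 0 in 42 of the 45 pairs (median r = 0.47), and 8 pairs had an adjusted p under 0.05 (permutation within groups, two-sided, 12 mice). The same counts were not made over pairs of other genes, so whether they are unusual was not tested. Both values of a mouse come from 1 library and share its depth and composition. *Dcn* and *Lum* had the highest value, r = 0.97 and rho = 0.92 (permutation p = 3e-05 for r and 0.00032 for rho, adjusted p = 0.000675; r = 0.97 without the 2 farthest mice). *Pdgfra* correlated with *Tcf21* at r = 0.93 and rho = 0.92 (permutation p = 0.00012 for r and 0.00038 for rho, adjusted p = 0.0018; r = 0.78 without the 2 farthest mice) and with *Dcn* at r = 0.91 and rho = 0.90 (permutation p = 3e-05 for r and 0.00022 for rho, adjusted p = 0.000675; r = 0.93 without them). *Nr2f1* and *Nr2f2* correlated at r = 0.77 and rho = 0.76 (permutation p = 0.00707 for r and 0.00665 for rho, adjusted p = 0.0494; r = 0.77 without the 2 farthest mice), and by rank this pair had an adjusted p of 0.0588. The genes most alike to each were *Rspo3*, which encodes a Wnt-enhancing signal of the capsule, for *Nr2f2* (r = 0.94), *Cxcl12*, a chemokine of stromal cells, for *Dcn* (r = 0.96), *Cp* for *Pdgfra* (r = 0.97), *Fstl1* for *Tcf21* (r = 0.95), *Col1a2*, a chain of type I collagen, for *Pdgfrb* (r = 0.94), *1810011O10Rik* for *Lum* (r = 0.94), *Nubpl* for *Wt1* (r = 0.94), *H2-Eb1* of MHC class II for *Dpt* (r = 0.91) and *Golm1* for *Nr2f1* (r = 0.88). These are the highest of 11387 genes each and are given as a description. With 8 cortical markers, which are named below, *Dcn*, *Lum*, *Pdgfra*, *Tcf21*, *Wt1* and *Nr2f2* had r from -0.83 (*Wt1*) to -0.58 (*Nr2f2*). Only *Dcn* and *Lum* had an adjusted p under 0.05 there, and the other genes lay between -0.38 and -0.09. A varying share of cortical RNA as a part of the correlations between genes was not tested.

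**Figure D5:**
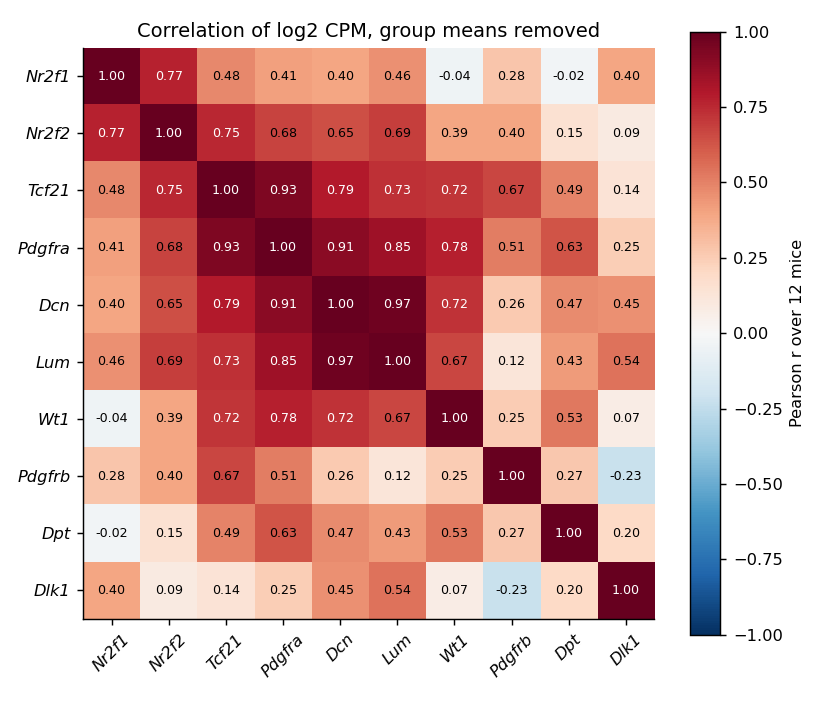
Pearson r of log2 CPM between each pair of genes over 12 mice after the mean of each group was removed (colour from -1, blue, to 1, red). *Tcf21*, *Pdgfra*, *Dcn* and *Lum* form a block with r from 0.73 to 0.97, and *Dlk1* has r from -0.23 to 0.54 with the other genes.

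Between mice, levels of *Dcn* and *Lum*, but not of *Dpt*, correlated with those of the zG at an adjusted p under 0.05. Several of the other genes described here had values on the same side that did not pass. With group means removed, *Dcn* correlated with the mean of 7 zG markers at r = 0.82 and rho = 0.80 (permutation p = 0.00062 for r and 0.00407 for rho, adjusted p = 0.0139 over the 90 comparisons; r = 0.90 without the 2 farthest mice). With 8 cortical markers (*Nr5a1*, *Star*, *Cyp11a1*, *Cyp21a1*, *Cyp11b1*, *Hsd3b1*, *Mc2r* and *Scarb1*) *Dcn* correlated at r = -0.74 and rho = -0.78 (permutation p = 0.00226 for r and 0.00398 for rho, adjusted p = 0.0339; r = -0.70 without the 2 farthest mice). *Lum* did likewise, at r = 0.80 and rho = 0.80 with the zG markers (permutation p = 0.00157 for r and 0.00552 for rho, adjusted p = 0.0283; r = 0.87 without the 2 farthest mice) and r = -0.80 and rho = -0.81 with the cortical markers (permutation p = 0.00044 for r and 0.00336 for rho, adjusted p = 0.0132; r = -0.74 without them). By rank, these 4 relations had an adjusted p of 0.071. *Dpt* correlated with the zG markers at r = 0.16 and rho = 0.21 (permutation p = 0.716 for r and 0.584 for rho, adjusted p = 0.969; r = 0.54 without the 2 farthest mice). With the zG markers, *Pdgfra* was at r = 0.79, *Tcf21* at 0.75, *Wt1* at 0.68 and *Nr2f2* at 0.67. Their adjusted p was 0.0877, 0.173, 0.316 and 0.173 by the same permutation. Lower were *Pdgfrb* (0.44), *Nr2f1* (0.32) and *Dlk1* (0.19). With the cortical markers, *Wt1* was at r = -0.83 and *Pdgfra* at -0.75 (permutation, adjusted p = 0.0966 and 0.171). The cortical markers, which define the labelled tissue, summed to between 50469 and 103334 CPM in every mouse. Of the 7 zG markers 3 rose in βCat-GOF adrenals (*Agtr1b*, *Vsnl1* and *Dab2*), and their sum was between 1168 and 1803 CPM in Ctrl and between 1480 and 3100 CPM in βCat-GOF mice. A larger share of zG RNA as a part of the differences described here was not tested.

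Other genes of the capsule and stroma were read from lists. Of 10 genes of capsule signalling, 5 had a log2 fold change above 0 and none passed (median 0.01). Among them *Shh*, the Hedgehog ligand made by zG cells, had a log2 fold change of 0.96 (SE 0.29, adjusted p = 0.0821, with 28.3% of its exons overlapping another gene) and *Rspo3* one of -0.03 (SE 0.20, adjusted p = 0.95). Named after they were seen, *Gli3* was at 0.65 and *Gli1* at 0.53 (SE 0.20 and 0.23, adjusted p = 0.0989 and 0.21). On the other side, *Hhip* was at -0.38 and *Ptch1* at -0.21 (adjusted p = 0.434 and 0.607), and 5 of the 10 genes were below 0. Of 26 genes of fibroblast and capsule matrix, 1 rose and 1 fell (median -0.04). *Fbln1*, which encodes fibulin-1 of the extracellular matrix, had between 154 and 373 normalized counts in Ctrl mice (median 192) and between 558 and 999 in βCat-GOF mice (median 835). The groups were apart, with a log2 fold change of 1.86 (SE 0.21, adjusted p = 0.000607). *Ly6a*, which encodes the stem cell antigen Sca-1 of fibroblasts and vessels, fell by 0.62 on the log2 scale (SE 0.14, adjusted p = 0.0278). *Sparc* and *Col6a1*, the most abundant genes of this list per length, had log2 fold changes of 0.18 (adjusted p = 0.713) and -0.40 (adjusted p = 0.396), neither past the cut-offs.

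None of 11 tested small leucine-rich proteoglycans, the family of *Dcn* and *Lum*, passed (median -0.11). *Bgn* and *Ogn*, the most abundant of them per length, had log2 fold changes of -0.0031 and -0.25 (standard errors 0.14 and 0.23, adjusted p = 0.994 and 0.576). *Kera*, which encodes keratocan of the same family, had at most 1 read in any mouse. None of 11 tested genes of mural cells, the pericytes and smooth muscle that *Pdgfrb* also marks, passed (median -0.13), and 7 of them had a log2 fold change below 0. *Acta2*, smooth muscle actin, had a log2 fold change of 0.48 (SE 0.15, adjusted p = 0.101), and *Tagln* one of -0.02 (SE 0.15, adjusted p = 0.956), with 67.9% of its exons overlapping another gene. Lower values, named after they were seen, were those of *Myh11*, smooth muscle myosin (-0.51, SE 0.17, adjusted p = 0.116), and of *Notch3*, a receptor of mural cells (-0.54, SE 0.19, adjusted p = 0.126). Every βCat-GOF mouse lay below every Ctrl mouse for *Myh11*, as for 1.16% of all genes tested. Markers of other cells were present throughout. The sum of 8 endothelial markers was between 704 and 879 CPM in Ctrl and between 621 and 898 CPM in βCat-GOF mice, that of 8 macrophage markers between 426 and 820 and between 337 and 565, and that of 7 mesothelial markers between 6.56 and 19.5 and between 8.64 and 18.6. All 8 endothelial and 7 of the 8 macrophage markers had a log2 fold change below 0 (median -0.17 and -0.37). The same held for 3 of 4 tested mesothelial markers (median -0.07), beside 50% of all genes tested. Of these markers only *Adgre1* of macrophages passed, and it fell by 0.78 on the log2 scale (SE 0.20, adjusted p = 0.0459).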

How the data were processed

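RNA-seq libraries of 12 whole adrenals were used. Per the labels, the study's methods and the submitters' processing notes, the authors aligned reads to mm10 with STAR, obtained counts with featureCounts 1.4.4 and compared groups with DESeq2 1.6.3. The annotation release and the strand setting are not given in the sources used here. The authors deposited these counts, without normalization. They also deposited a normalized signal per gene, which equals the count over 1 scaling factor per library. All tests rest on the counts, and gene symbols came from the signal table. Positions and exon lengths came from GENCODE M21 (GRCm38, the assembly of mm10), which places 37607 of the genes.

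Groups were compared with edgeR 4.0.16 (two-sided quasi-likelihood test after TMM and filterByExpr) under R 4.3.3. The cut-offs were those of the study. Standard errors are the log2 fold change divided by the square root of F, and 95% intervals are 1.96 of them to each side. Log2 CPM used a prior count of 2. Correlations used 100000 permutations of mice within groups. The script was tested on simulated counts. Python 3.11.15 and matplotlib 3.10.9 were used otherwise. A floor of 3 counts is 0.117 to 0.222 CPM in these libraries, and counting error limits the precision of genes as low as *Wt1*. P-values set a difference or a correlation against the spread between these 12 mice.

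The members and lists were chosen with earlier results of these data known. Named are the 10 members, genes of a list past the cut-offs (up to 4), the 2 most abundant genes of each list per length, and for each member the gene most alike. Markers of other cells are named where near 0 or past the cut-offs. *Kera*, *Six4*, *Myh11*, *Notch3*, *Podxl*, *Lrp2*, *Gli1*, *Gli3*, *Hhip*, *Ptch1* and the 4 ratios were named after their values were seen. Alternatives were DESeq2 1.42.0, its size factors in edgeR, other filters, 1 surrogate variable (sva 3.50.0), other call rules and leaving out mice. The ratio of *Dlk1* to chromaffin markers and the levels without βCat-GOF replicate 5 were added after the data were seen. Markers that are not reported here were left out of the chromaffin and kidney lists.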

Additional observations from a re-analysis of the deposited data

Results flagged for a closer look

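*Dpt* in βCat-GOF replicate 5 was far from the other 5 mice of its group, at 1209 normalized counts against 404 in the next. The gap to the next mouse was 0.74 of the group's range, above Dixon's 95% critical value for 6 samples. The 10 genes gave 20 groups of 6 mice, of which 1 was so marked, and chance marks about 1 in 20. The label of this mouse begins with another number than those of the other βCat-GOF mice.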

How the results depend on the processing

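*Nr2f1* was called higher under every alternative run but the test against a fold of 1.4 itself, which left 0 of the 10 genes called higher. Leaving out each mouse in turn gave 1 gene called higher in every fit and 0 to 1 called lower. The gene called lower was *Dlk1*, without Ctrl replicate 1. It was also called (1 gene) without the 3 mice whose labels repeat a stem, with a log2 fold change of -0.86 and an adjusted p of 0.0415 by edgeR. *Wt1* turned to -0.022 without these 3 mice, and ranged from -0.15 (without βCat-GOF replicate 1) to 0.27 with each mouse left out. *Dpt* ranged from -0.29 to 0.60 and turned only without βCat-GOF replicate 5, the one βCat-GOF mouse whose label starts differently. *Lum* turned to 0.0083 with 1 surrogate variable. In that fit *Tcf21* went to -0.11, *Pdgfra* to -0.09, *Dcn* to -0.27 and *Dlk1* to -0.48, while *Pdgfrb* stayed at -0.28. *Nr2f2* went to 0.29 and *Wt1* to 0.27 there. Single mice also moved values that did not pass by over 1.5 times. Without Ctrl replicate 3, *Lum* went from -0.26 to -0.05, *Dcn* from -0.47 to -0.31 and *Pdgfra* from -0.23 to -0.13. Without βCat-GOF replicate 3, *Tcf21* went from -0.25 to -0.16 and *Lum* to -0.17, and without βCat-GOF replicate 1 they went to -0.39 and -0.41. The median log2 fold change of the 10 genes stayed below 0, between -0.31 and -0.04, with -0.04 in the fit with 1 surrogate variable. By Spearman correlation 4 pairs of genes passed in place of 8, all 4 among the 8. Over all genes, 222 were higher and 130 lower. DESeq2 gave 363 and 283, the adjusted p alone 323 and 228, the test against the fold 51 and 16, and the fit without the 3 mice 255 and 228. Leaving out each mouse gave 146 to 340 higher and 61 to 223 lower. The cause of these changes was not tested. *Wt1* was not tested where every mouse had to have 10 counts. No paired analysis was possible because the labels give no replicate numbers shared between the groups.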

Other observations

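Transcription factors of the adrenogonadal primordium, from which cortex and capsule derive, and relatives of the 10 genes were read from 2 further lists. Of 10 tested factors none passed the cut-offs (median log2 fold change 0.03). *Six4*, a homeobox factor, had between 9.78 and 18.9 normalized counts in Ctrl and between 22.1 and 58.0 in βCat-GOF mice, a log2 fold change of 1.30 (SE 0.26, adjusted p = 0.0156 by edgeR), but its base mean is under 100. It was named after its values were seen. *Nr5a1*, the master regulator of steroidogenic cells, and *Cited2*, the most abundant per length, had log2 fold changes of 0.22 and -0.03 (adjusted p = 0.483 and 0.929). Of 10 tested relatives 1 passed. *Tcf24*, a helix-loop-helix factor related to *Tcf21*, fell by 0.84 on the log2 scale, from 135 to 75.6 mean normalized counts (SE 0.19, adjusted p = 0.0245), with 14.8% of its exons overlapping another gene. *Nr2f6*, the third COUP-TF related receptor, had a log2 fold change of -0.03 (SE 0.11, adjusted p = 0.907), with 54.4% of its exons overlapping another gene, and *Csf1r* one of 0.11 (SE 0.14, adjusted p = 0.718).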
